A study of Mus musculus with 11 samples.

Results

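The immunoglobulin genes described here are the genes whose names begin with Ighv, Igkv, Iglv, Ighg, Igha or Iglc, together with Ighm, Ighd, Igkc and Jchain, that had at least 1 read in splenic macrophage libraries of tumor-bearing mice. Of 35597 genes in the table that sets tumor macrophages beside splenic macrophages, 296 have such names, and 290 met the rule. They were 7 heavy chain constant genes, the kappa constant gene, 4 lambda constant genes, Jchain, 138 heavy chain variable genes, 136 kappa variable genes and 3 lambda variable genes. The rule asks for a read in spleen, so every member had to be seen there and none had to be seen in tumor. Just inside it were 17 genes with 1 read in all splenic libraries together, and just outside it were 6 genes with none there and between 1 and 5 reads in the tumor libraries without Cre.

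RNA was sequenced from macrophages of C57BL/6 mice that were 6 to 8 weeks old when cells of the mouse lung tumor line LLC (Lewis lung carcinoma) were placed under the skin, and the cells were sorted 14 days later. KO_TAM are 4 libraries of tumor-associated macrophages from LysMCre;Sin1fl/fl mice, WT_TAM are 4 libraries of tumor-associated macrophages from Sin1fl/fl mice without Cre, and WT_SP are 3 libraries of splenic macrophages from Sin1fl/fl mice without Cre. Every group therefore carried the floxed allele and a tumor, and spleens of tumor-free mice or of Cre mice were not analysed here. Sin1 is a subunit of mTOR complex 2, and LysM-Cre removes floxed alleles in cells of the myeloid lineage, where Lyz2 is active. The tumor gate took CD45+ cells that were CD11b+ and F4/80+ and lacked Ly6G and Ly6C. The splenic gate took CD45+ cells that were F4/80+ with low CD11b and lacked TCRβ, Ly6G and Ly6C. The splenic gate was thus set to leave out T cells with an alpha-beta receptor, and neither gate as labelled names a B cell or plasma cell marker. T cell transcripts were still read in WT_SP, as given below. The study compared the genotypes to ask how Sin1 acts on the anti-tumor function of these macrophages, and the tissues to ask whether its effect on type I interferon signaling is particular to the tumor. Whether the libraries come from separate mice is not stated by the labels. The p-values therefore reflect the spread between libraries, and that spread may be technical.

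Immunoglobulins are made by B cells and by plasma cells, the antibody-secreting cells that B cells give rise to. A developing B cell joins 1 variable segment to shorter segments at the heavy chain locus and then at the kappa or lambda locus, so that a clone of B cells shares a single pair of variable genes. The constant gene sets the isotype: Ighm gives IgM, Ighd IgD, the Ighg genes IgG and Igha IgA. Jchain encodes the chain that links IgM and IgA into polymers, and plasma cells express it highly. Macrophages bind antibody through Fc receptors.

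Many members are near copies of one another, which bears on every value given per gene. Of the 277 variable members, 113 had another member of the same kind at 95% identity or more over the coding or transcript sequence, and the median identity to the nearest member was 93.4%. Reads of such genes could be split or lost by the counting, and how it treats reads with several matches is not stated by the labels. The first 300 coding bases of 2 such pairs are shown for this reason, from the GENCODE M21 transcripts on GRCm38, 5′ to 3′, with capitals at the bases that differ within the pair. Iglv1 (chromosome 16, 19085017 to 19085500, minus strand) and Iglv2 (chromosome 16, 19260401 to 19260859, minus strand) are lambda variable genes with 96.9% identity and 8 differing bases in this stretch. Iglc2 (chromosome 16, 19198396 to 19200351, minus strand) and Iglc3 (chromosome 16, 19065230 to 19065681, minus strand) are lambda constant genes with 96.2% identity.
Iglv1: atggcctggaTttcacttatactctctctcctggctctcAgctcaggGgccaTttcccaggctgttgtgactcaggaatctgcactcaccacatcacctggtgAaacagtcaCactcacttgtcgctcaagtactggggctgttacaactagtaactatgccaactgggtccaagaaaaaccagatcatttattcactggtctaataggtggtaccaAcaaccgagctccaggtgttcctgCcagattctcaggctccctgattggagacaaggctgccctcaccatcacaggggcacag
Iglv2: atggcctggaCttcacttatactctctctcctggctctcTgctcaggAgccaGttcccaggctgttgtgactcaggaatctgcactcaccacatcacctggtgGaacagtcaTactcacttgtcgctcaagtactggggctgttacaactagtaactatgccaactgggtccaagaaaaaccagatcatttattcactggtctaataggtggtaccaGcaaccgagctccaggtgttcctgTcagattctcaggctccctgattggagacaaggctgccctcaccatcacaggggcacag
Iglc2: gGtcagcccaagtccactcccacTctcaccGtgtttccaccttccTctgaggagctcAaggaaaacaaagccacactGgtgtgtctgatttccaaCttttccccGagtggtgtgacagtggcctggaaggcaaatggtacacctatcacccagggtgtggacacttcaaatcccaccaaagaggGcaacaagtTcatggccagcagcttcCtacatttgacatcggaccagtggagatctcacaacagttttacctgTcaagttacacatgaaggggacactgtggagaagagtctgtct
Iglc3: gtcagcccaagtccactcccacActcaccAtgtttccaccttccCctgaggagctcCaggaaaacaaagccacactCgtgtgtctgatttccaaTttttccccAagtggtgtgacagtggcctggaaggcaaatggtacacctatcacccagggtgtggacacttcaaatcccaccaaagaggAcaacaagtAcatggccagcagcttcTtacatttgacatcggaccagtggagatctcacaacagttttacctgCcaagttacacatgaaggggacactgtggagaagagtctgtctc

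A further 3 coding starts are shown because the results turn on these variable genes, all in lower case since no base is singled out. Igkv6-15 (chromosome 6, 70406469 to 70406992, minus strand) had the highest mean CPM (scaled read count, defined below) of the kappa variable members. Ighv1-18 (chromosome 12, 114682632 to 114683065, minus strand) and Igkv4-70 (chromosome 6, 69267888 to 69268443, minus strand) held most of the variable reads of a single tumor library.
Igkv6-15: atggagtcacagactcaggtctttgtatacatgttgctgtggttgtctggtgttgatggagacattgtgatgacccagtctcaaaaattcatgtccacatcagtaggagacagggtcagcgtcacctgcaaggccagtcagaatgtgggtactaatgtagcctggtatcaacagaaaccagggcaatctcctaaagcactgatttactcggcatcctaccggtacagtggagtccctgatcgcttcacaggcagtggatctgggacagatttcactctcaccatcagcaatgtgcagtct
Ighv1-18: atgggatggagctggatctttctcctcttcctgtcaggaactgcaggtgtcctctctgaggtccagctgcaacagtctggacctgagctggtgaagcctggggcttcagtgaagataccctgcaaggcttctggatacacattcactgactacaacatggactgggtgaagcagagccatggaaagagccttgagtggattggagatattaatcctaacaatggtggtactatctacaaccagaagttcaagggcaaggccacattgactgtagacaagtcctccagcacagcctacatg
Igkv4-70: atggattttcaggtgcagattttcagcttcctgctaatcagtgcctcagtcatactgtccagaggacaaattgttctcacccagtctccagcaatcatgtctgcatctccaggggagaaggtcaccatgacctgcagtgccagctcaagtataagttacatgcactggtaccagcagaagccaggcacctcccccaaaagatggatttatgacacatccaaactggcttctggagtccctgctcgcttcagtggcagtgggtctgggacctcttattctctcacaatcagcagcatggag

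Reads recovered from the deposited values numbered between 9799754 and 13058346 in KO_TAM, between 7635670 and 13075355 in WT_TAM and between 10631007 and 11813471 in WT_SP. Levels are given as CPM, the reads of a gene scaled to a common library size by each library's total and its size factor in the authors' table. At these depths 3 reads, the limit that a count of 0 allows, correspond to between 0.253 and 0.492 CPM in WT_TAM and between 0.211 and 0.232 CPM in WT_SP. No pair of libraries within a group agreed within sampling noise, since the chi-square over genes was between 11.1 and 233.0 per degree of freedom. Mapkap1, the gene of Sin1, had 43.3 to 54.1 CPM in KO_TAM and 30.7 to 71.1 CPM in WT_TAM, a difference of -0.22 ± 0.26 on the log2 scale (SE; adjusted p = 0.658 by limma), and the groups overlapped. Its reads are counted over the whole gene, so exons outside the deletion could be included.

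Immunoglobulin transcripts made up several percent of the reads of the splenic libraries and a trace of those of the tumor libraries. Members took 2400, 2196, 1469 and 404 reads in WT_TAM replicates 1 to 4, against 783697, 481123 and 655914 reads in WT_SP replicates 1 to 3. That is between 0.00529% and 0.0184% of the reads of each WT_TAM library and 6.63% (95% Clopper-Pearson interval 6.62 to 6.65), 4.53% (4.51 to 4.54) and 5.79% (5.78 to 5.80) of the reads in the WT_SP libraries. These intervals cover counting error only. The summed level was 202.7, 215.2, 128.4 and 66.2 CPM in WT_TAM, against 55240, 37140 and 48090 CPM in WT_SP. The mean was 153 ± 69.5 CPM in WT_TAM (SD, n = 4) and 46820 ± 9116 CPM in WT_SP (SD, n = 3), 306-fold lower in WT_TAM. The highest WT_TAM library lay 173-fold below the lowest WT_SP library, a gap far wider than the spread within either group. In bulk libraries such as these, fewer cells of a type and less RNA per cell cannot be told apart.

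**Figure D1:**
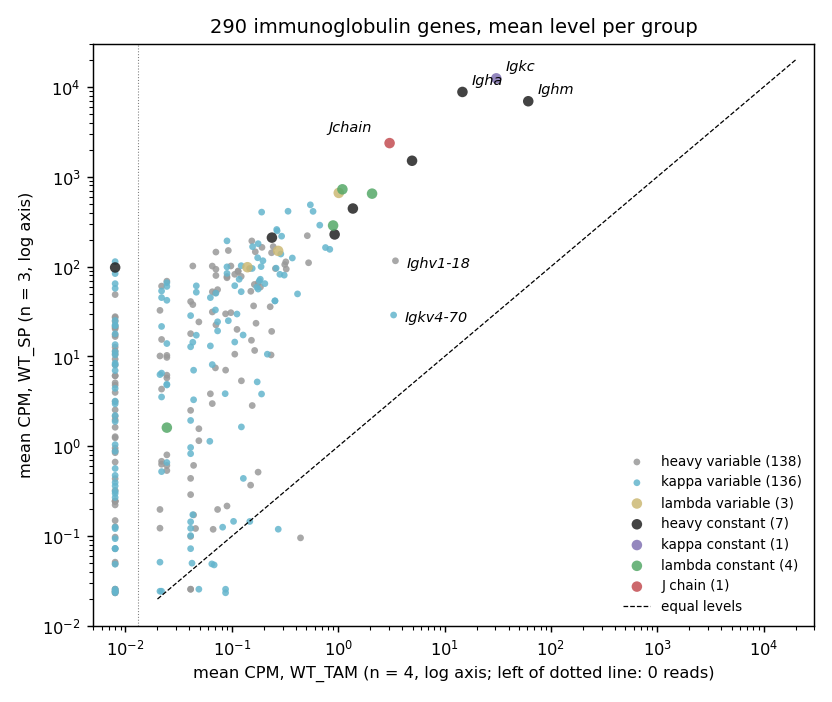
Mean CPM of each of the 290 members in WT_TAM (horizontal, n = 4) and WT_SP (vertical, n = 3), both on log axes, coloured by kind of gene, with the dashed line at equal levels and genes without a read in WT_TAM drawn left of the dotted line. Nearly all points lie above the line, Ighv1-18 and Igkv4-70 lie nearer to it than other variable genes of like WT_SP level, and the few points below the line are genes with a handful of reads.

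All kinds of immunoglobulin gene shared the difference. Summed levels were 218-fold lower in WT_TAM for the heavy constant genes, 406-fold lower for Igkc, 406-fold lower for the lambda constant genes and 778-fold lower for Jchain. The variable genes were 332-fold lower as a sum at the heavy chain locus, 398-fold lower at the kappa locus and 638-fold lower at the lambda locus. Of 290 members, 190 passed the filter on low values and were tested, and all 190 were lower in WT_TAM by limma at an adjusted p below 0.05. Over all 14171 genes tested in this comparison, 23.7% were lower in WT_TAM and 23.1% higher, 46.8% in either direction, and 53.9% had an unadjusted p below 0.05. With the library total alone as the scale, 5594 genes were lower and 2135 higher, against 3353 lower and 3275 higher with the authors' factors, and the median of all genes moved to -0.52, against -0.07. Every tested member reached the filter's level in all WT_SP libraries, and 166 of the 190 reached it in no WT_TAM library, so the count follows in part from the choice of members and is a description. The p-values given below for single members that reached it in no WT_TAM library share this limit. Log2 fold changes of the 190 ran from -9.81 for Igha to -1.82 for Ighv1-38, named here after its value was seen, with a median of -6.21.

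The 100 members that were not tested had few reads, with a median of 8.5 in the WT_SP libraries together. The mean level was lower in WT_TAM than in WT_SP for 90 of these 100. Among all 290 members, 249 were read in every WT_SP library and 22 in every WT_TAM library, and 87 had no read in any WT_TAM library. In 235 members every WT_TAM library lay below every WT_SP library, and in 34 members at least 1 WT_TAM library lay above a WT_SP library. Members had to be read in WT_SP and not in WT_TAM, so these counts follow in part from the rule. They are descriptions, and the same counts over all genes were not made. WT_TAM replicates 1 to 4 held reads of 67, 137, 107 and 95 members, against 266, 271 and 269 members in WT_SP replicates 1 to 3.

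Ighm, the constant gene of IgM, the isotype that B cells express first, took most of the heavy constant reads in every tumor library. Its position is chromosome 12, 113418558 to 113422730, minus strand (GRCm38). It had 68.0, 105.0, 55.6 and 16.1 CPM in WT_TAM and 7163, 6312 and 7287 CPM in WT_SP. The groups lay far apart, and WT_TAM replicate 4 was lowest. The log2 fold change was -7.08 ± 0.54 (SE; limma adjusted p = 1.42e-05). Ighd, which follows Ighm on the same strand and is spliced from the same primary transcript in mature B cells, had 0.676, 14.3, 3.32 and 1.48 CPM in WT_TAM against 1385, 1481 and 1653 CPM in WT_SP. Replicate 2 stood highest of the WT_TAM libraries for both genes, and for Ighd it lay far above the other WT_TAM libraries. The Ighd change was -8.79 ± 0.73 on the log2 scale (SE; limma adjusted p = 2.34e-05).

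Igha, the constant gene of IgA, showed the lowest fitted log2 fold change of all tested members, at -9.81 ± 0.78 (SE; limma adjusted p = 1.85e-05). The fit adds 0.5 CPM to every level, which understates the changes of genes near 0 in WT_TAM. The rank therefore holds for the fitted values only, and a gene without WT_TAM reads, such as Ighg3, could be lower still. Igha had 38.2, 3.53, 14.2 and 2.95 CPM in WT_TAM, against 11820, 5885 and 8627 CPM in WT_SP. It differed more between splenic libraries than Ighm did, and in WT_TAM its libraries were spread widely, with replicate 1 highest.

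The 4 IgG genes together took between 0.628% and 8.13% of heavy constant reads in WT_TAM and between 3.03% and 7.07% in WT_SP. Ighg2b had 0.422, 1.86, 2.88 and 0.328 CPM in WT_TAM and 354, 222 and 752 CPM in WT_SP, a log2 fold change of -7.96 (limma adjusted p = 1.13e-05). Ighg1 had between 0.0980 and 0.437 CPM in WT_TAM and 327, 78.3 and 225 CPM in WT_SP. Ighg2c, which this strain carries in place of Ighg2a, had 0, 0.392, 3.15 and 0.164 CPM in WT_TAM and 342, 63.0 and 279 CPM in WT_SP. WT_SP replicate 2 was the lowest splenic library for all 4 IgG genes, and WT_TAM libraries stayed below it for each of them. Ighg3 had no read in any WT_TAM library, against 149, 64.1 and 80.4 CPM in WT_SP. Taken against 3 reads over the WT_TAM group, that is at least 1291-fold lower in WT_TAM. Coding sequences of Ighg2b and Ighg2c are 88.0% identical, so reads could pass between them.

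Among light chains, Igkc, the only kappa constant gene (chromosome 6, 70726435 to 70726966, plus strand), had 49.1, 38.7, 19.8 and 14.9 CPM in WT_TAM, against 15140, 9663 and 12520 CPM in WT_SP. The log2 fold change was -8.78 ± 0.40 (SE; limma adjusted p = 1.05e-06). Its WT_TAM libraries lay closer together than those of Igha.

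The lambda constant genes, which serve the minor light chain of mice, were lower in WT_TAM as well. Iglc1 had 1.44, 1.47, 1.31 and 0.164 CPM in WT_TAM and 702, 720 and 752 CPM in WT_SP (log2 fold change -8.95; limma adjusted p = 8.69e-07). Iglc2 had 0.253, 6.96, 0.787 and 0.328 CPM in WT_TAM and 569, 716 and 661 CPM in WT_SP (-8.69; limma adjusted p = 2.22e-05). Iglc3 had 0.422, 2.65, 0.350 and 0.164 CPM in WT_TAM and 218, 331 and 311 CPM in WT_SP (-7.96; limma adjusted p = 4.78e-06). WT_TAM replicate 2 was highest for Iglc2 and Iglc3, the near-identical pair printed above, while for Iglc1 replicates 1 to 3 were nearly equal and replicate 4 was low. Iglc4 was close to the limit of detection, with 1 read in all WT_TAM libraries together and between 1.39 and 1.98 CPM in WT_SP.

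The lambda variable genes Iglv1, Iglv2 and Iglv3 varied little between splenic libraries. Iglv1 had 0.844, 2.25, 0.787 and 0.164 CPM in WT_TAM, against 659, 665 and 658 CPM in WT_SP (WT_SP SD 3.77 CPM, n = 3). Iglv2 and Iglv3 had at most 0.490 CPM in a WT_TAM library, and between 132.9 and 161 CPM and between 94.9 and 105 CPM in WT_SP. The 3 log2 fold changes were -8.95, -7.65 and -7.31 for Iglv1, Iglv2 and Iglv3, with limma adjusted p of at most 1.06e-06.

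Jchain (chromosome 5, 88519809 to 88527891, minus strand) had 6.33, 1.27, 3.41 and 1.15 CPM in WT_TAM, against 3050, 1684 and 2366 CPM in WT_SP. The difference, -9.60 ± 0.49 on the log2 scale (SE; adjusted p = 1.71e-06 by limma), was close to that of Igha. In WT_SP it ranked the libraries as Igha did, with replicate 1 highest and replicate 2 lowest, and in WT_TAM replicates 1 and 3 were the highest for both genes. There were between 1.02 and 5.89 Jchain reads per 100 heavy constant reads in WT_TAM and between 11.9 and 14.2 in WT_SP, ranges that do not overlap.

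**Figure D2:**
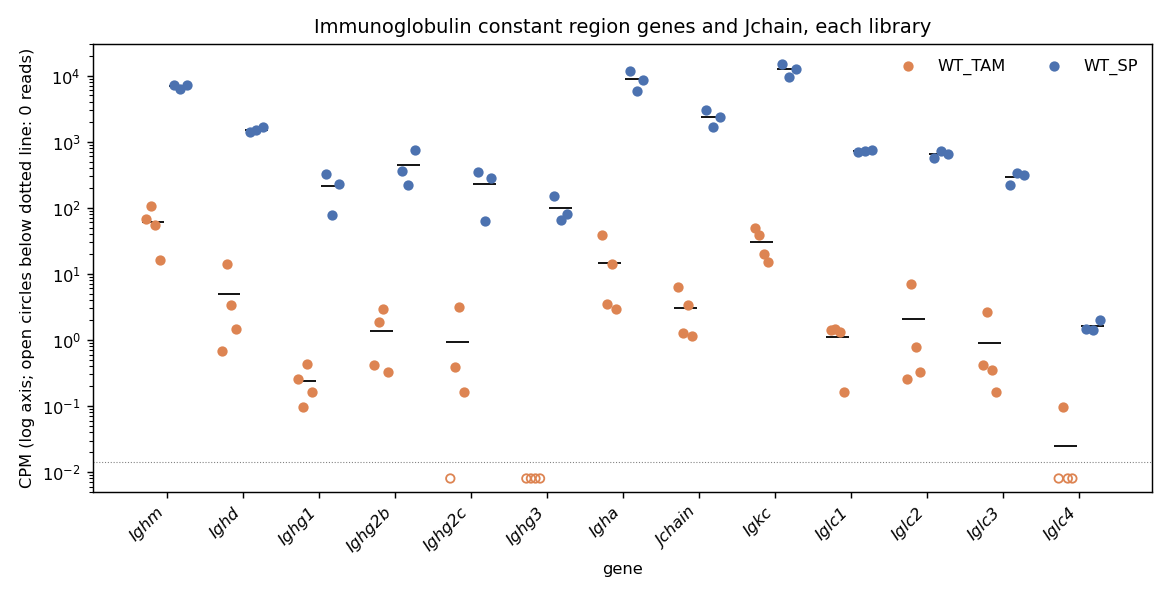
CPM of the 12 constant genes and Jchain in each WT_TAM (orange, n = 4) and WT_SP library (blue, n = 3) on a log axis, with black lines at group means and open circles below the dotted line for 0 reads. Each gene's WT_TAM libraries all lie below its WT_SP libraries, and Ighg3 has no WT_TAM read.

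The mix of heavy chain isotypes differed between tumor and spleen. Ighm took 63.2%, 83.9%, 69.9% and 76.0% of heavy constant reads in WT_TAM replicates 1 to 4, against 33.3%, 44.8% and 38.5% in WT_SP replicates 1 to 3. The widest 95% Clopper-Pearson half-interval of these shares was 7.70 points in WT_TAM and 0.23 points in WT_SP, so the groups do not overlap within counting error. Igha took 35.6%, 2.82%, 17.8% and 14.0% in WT_TAM, against 54.9%, 41.7% and 45.6% in WT_SP. WT_TAM replicate 1 came nearest to the splenic libraries and replicate 2 lay farthest from them. The mean difference, WT_TAM minus WT_SP, was 34.4 points for Ighm and -29.9 points for Igha. Counted per kb of exon, Ighm still held between 70.7% and 84.9% in WT_TAM and between 39.8% and 51.4% in WT_SP.

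The IgD gene and the light chains did not separate the tissues in this way. Ighd took between 0.628% and 11.4% of heavy constant reads in WT_TAM and between 6.43% and 10.5% in WT_SP. Igkc took between 77.6% and 95.9% of light constant reads in WT_TAM, with 77.6% in replicate 2, and between 84.5% and 91.0% in WT_SP. Both WT_SP ranges lie inside the WT_TAM ranges.

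The proportion of heavy to light chain reads depended on which genes were counted. There were 138.6, 271, 280 and 107.7 Ighm reads per 100 Igkc reads in WT_TAM replicates 1 to 4, against 47.3, 65.3 and 58.2 in WT_SP, ranges that do not overlap. All heavy constant reads per 100 light constant reads numbered 210.2, 251, 357 and 136 in WT_TAM and 129.6, 123 and 133 in WT_SP, so that WT_TAM replicate 4 nearly met the WT_SP range. Ighv reads per 100 Igkv reads numbered 90.8, 70.1, 96.1 and 61.3 in WT_TAM and 65.8, 60.6 and 67.5 in WT_SP, and these overlapped.

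Relative to the signalling partners of the B cell receptor the result differed by partner. Ighm reads numbered 1963, 458, 1010 and 653 per 100 Cd79a reads in WT_TAM and 380, 316 and 319 in WT_SP, with every WT_TAM library higher. They numbered 875, 579, 677 and 280.0 per 100 Cd79b reads in WT_TAM and 520.1, 391 and 428 in WT_SP, where WT_TAM replicate 4 lay below every WT_SP library. WT_TAM replicates 1 to 4 held only 41, 234, 63 and 15 Cd79a reads and 92, 185, 94 and 35 Cd79b reads. These ratios therefore carry counting error, most of all in replicate 4, and no interval was computed for them. Ighv reads numbered 25.6, 14.0, 19.3 and 66.3 per 100 Ighm reads in WT_TAM and 72.6, 54.0 and 64.4 in WT_SP. Igkv reads per 100 Igkc reads, by contrast, numbered 39.1, 54.2, 56.4 and 116 in WT_TAM, a range that includes the 52.3, 58.2 and 55.5 of WT_SP. For Ighv per Ighm, 3 of 4 WT_TAM libraries lay below every WT_SP library, and WT_TAM replicate 4, with 98 Ighm reads, lay within the WT_SP range. Per 100 reads of all heavy constant genes there were 16.2, 11.7, 13.5 and 50.4 Ighv reads in WT_TAM and 24.1, 24.2 and 24.8 in WT_SP, a narrower gap for replicates 1 to 3, with replicate 4 above the WT_SP range. How isotypes other than IgM share the variable reads was not resolved, since reads are counted per gene.

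**Figure D3:**
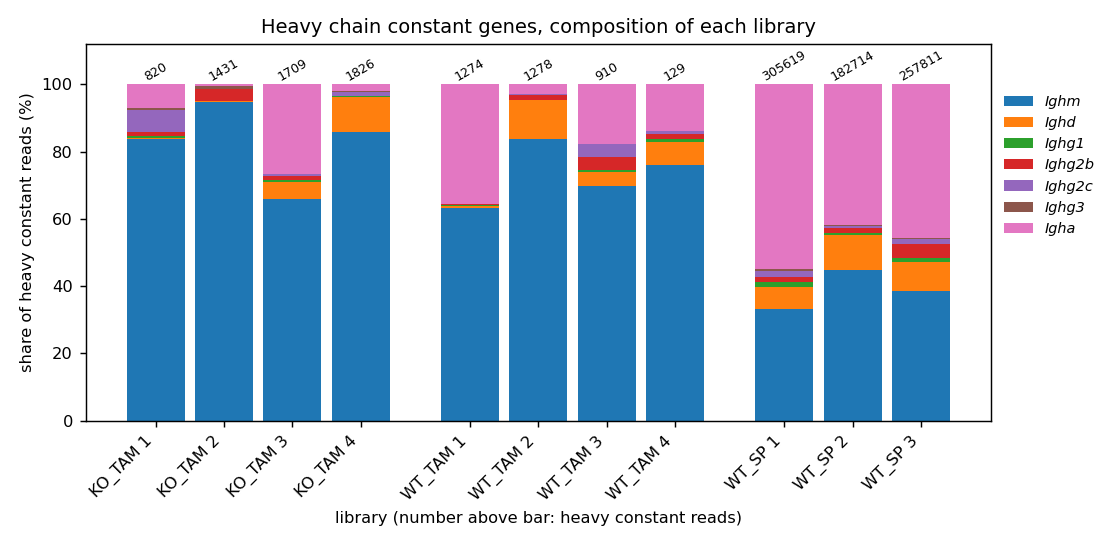
Share of each of the 7 heavy constant genes among heavy constant reads in each KO_TAM, WT_TAM and WT_SP library, as stacked bars that sum to 100%, with the number of heavy constant reads above each bar. Ighm fills between 63.2% and 83.9% of the WT_TAM bars and Igha between 41.7% and 54.9% of the WT_SP bars.

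The heavy chain variable members lie on chromosome 12 between positions 113572927 and 116000461, and the kappa variable members on chromosome 6 between positions 67555497 and 70704177 (GRCm38). Of 138 heavy chain variable members 86 were tested, and of 136 kappa variable members 88. Their log2 fold changes ran from -8.11 to -1.82 for Ighv genes and from -9.17 to -2.26 for Igkv genes. The annotation calls 67 of the 277 variable members pseudogenes, and these took only 0.168%, 0.273% and 0.225% of variable reads in the WT_SP libraries.

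The heavy chain variable genes with the most reads in spleen were nearly unread in tumor. Ighv9-3, with the highest mean CPM of them, had 0, 1.18, 0.874 and 0 CPM in WT_TAM, against 228, 206 and 228 CPM in WT_SP (log2 fold change -7.99; limma adjusted p = 2.97e-06). Ighv3-6 had at most 0.196 CPM in WT_TAM and 287, 112.8 and 179.9 CPM in WT_SP (-8.11; limma adjusted p = 6.26e-07). This gene reached the filter's level in WT_SP alone, so its p-value is a description. Ighv1-53 had at most 0.699 CPM in WT_TAM and 138.7, 76.2 and 286 CPM in WT_SP. Ighv1-81, Ighv1-64 and Ighv1-26, of the largest family, had at most 0.507 CPM in a WT_TAM library and at least 91.8 CPM in each WT_SP library. Between splenic libraries Ighv1-53 differed most of these 6 genes, and Ighv9-3 least.

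At the kappa locus Igkv6-15, shown above, had 0.338, 1.76, 0.0874 and 0 CPM in WT_TAM, against 778, 341 and 343 CPM in WT_SP. The log2 fold change was -9.03 ± 0.54 (SE; limma adjusted p = 3.48e-06). Igkv8-30 had the lowest fitted log2 fold change among variable genes, at -9.17 (limma adjusted p = 8.54e-07). Its levels were at most 0.588 CPM in WT_TAM and 610, 245 and 358 CPM in WT_SP. For genes this near 0 in WT_TAM the fitted value depends on the added 0.5 CPM and on the WT_SP level. Igkv1-110 had at most 0.612 CPM in WT_TAM and 514, 404 and 322 CPM in WT_SP. Igkv1-117 had 0.338, 1.47, 0.350 and 0.164 CPM in WT_TAM and 308, 322 and 605 CPM in WT_SP. Igkv1-135 and Igkv10-96 reached 2.01 and 0.882 CPM in WT_TAM and had at least 257 and 211 CPM in each WT_SP library. Each of these 6 genes had every WT_TAM library far below every WT_SP library.

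Splenic libraries drew on many variable genes in similar shares. The Ighv1 family, with 73 of the 138 heavy chain members, took between 53.0% and 54.2% of Ighv reads in the 3 WT_SP libraries, and the Ighv5 family between 9.33% and 13.8%. The effective number of Ighv genes, the inverse of the summed squared shares, was 41.8, 42.9 and 39.5 in WT_SP, and that of Igkv genes 28.7, 34.5 and 32.6. No Ighv gene took more than 6.09% of Ighv reads in a WT_SP library, and no Igkv gene more than 9.83% of Igkv reads. Single genes still differed between splenic libraries. Of 61 Ighv genes with at least 500 reads in WT_SP, 34 had a share at least 2 times higher in 1 library than in another, and of 69 such Igkv genes 29 did. The leading gene was Ighv3-6, Ighv9-3 and Ighv1-53 in WT_SP replicates 1 to 3, and at the kappa locus Igkv6-15, Igkv1-110 and Igkv1-117.

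Tumor libraries had few variable reads, and in WT_TAM replicate 1 a single gene led each locus. Ighv1-18 took 158 of the 206 Ighv reads there, or 76.7% (95% Clopper-Pearson interval 70.3 to 82.3), and Igkv4-70 took 156 of 227 Igkv reads, or 68.7% (62.2 to 74.7). Ighv1-18 had 13.3, 0.294, 0.175 and 0 CPM in WT_TAM, against 144, 89.7 and 114.6 CPM in WT_SP. Igkv4-70 had 13.2, 0.0980, 0 and 0 CPM in WT_TAM, against 41.9, 33.3 and 11.5 CPM in WT_SP. Replicate 1 alone set the WT_TAM level of both genes, and for Igkv4-70 it lay above the lowest splenic library. In spleen Ighv1-18 took between 2.44% and 2.77% of Ighv reads. Neither gene had a read in any KO_TAM library.

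The log2 fold change of Igkv4-70 was -4.43 ± 1.14 (SE; limma adjusted p = 0.0120), and without WT_TAM replicate 1 it was -5.61 (limma adjusted p = 0.000103). Its call was lost without a filter on low reads (adjusted p = 0.0623), without WT_TAM replicate 4 (0.0816) and without WT_SP replicate 1 (0.0529), all by limma. For Ighv1-18 the change was -6.37 ± 1.03 (SE; limma adjusted p = 0.00112), and -7.47 without that library. The effective number of genes in WT_TAM replicate 1 was 1.69 at the heavy chain locus and 2.08 at the kappa locus. Replicates 2 to 4 had 34.8, 17.1 and 18.8 for Ighv and 31.5, 16.9 and 25.5 for Igkv. The number falls where few reads are drawn, so WT_TAM values, from between 65 and 206 Ighv reads, are not set against those of WT_SP.

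The other WT_TAM libraries had weaker leaders. In replicate 2 Ighv9-3 led with 12 reads and Igkv6-15 with 18, the genes that also led a splenic library. In replicate 3 Ighv14-2 led with 22 of 123 Ighv reads, or 17.9% (11.6 to 25.8), and Igkv1-135 with 23 of 128 Igkv reads, or 18.0% (11.7 to 25.7). In replicate 4 Ighv1-73, which the annotation calls a pseudogene and which had 4 reads in WT_SP, led with 9 reads, and Igkv14-111 with 12.

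**Figure D4:**
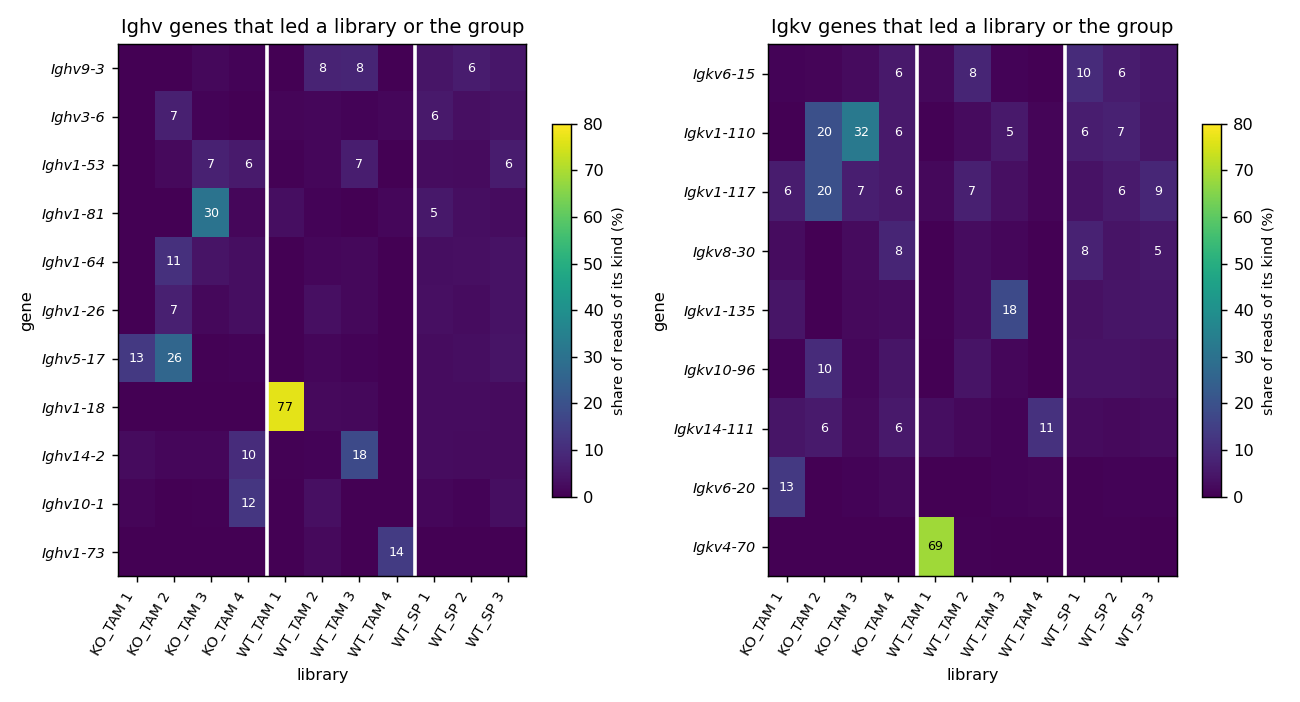
Share of Ighv reads (left panel) and of Igkv reads (right panel) taken by the genes that led a library or had the highest mean levels, in each KO_TAM, WT_TAM and WT_SP library, with shares of 5% and more printed. WT_TAM 1 has 76.7% in Ighv1-18 and 68.7% in Igkv4-70, and no cell of the WT_SP columns is above 9.83%.

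Markers of B cells moved with the immunoglobulin genes, and their part in the result was not tested. Of 25 B cell markers 24 were lower in WT_TAM and none was higher (limma adjusted p below 0.05), with a median log2 fold change of -6.52. Their summed level was 361, 378, 270 and 133 CPM in WT_TAM, against 12270, 13800 and 14270 CPM in WT_SP. Much of the WT_TAM sums came from Cd72, Siglecg and Bank1, named after their values were seen. Cd72, the only marker not called (limma adjusted p = 0.099), had 165, 117, 128 and 82.8 CPM in WT_TAM and 150, 190 and 188 CPM in WT_SP. Siglecg had 90.6, 51.8, 47.1 and 5.41 CPM in WT_TAM, and Bank1 41.9, 32.8, 21.9 and 1.80 CPM. Ms4a1, which encodes CD20, had 0.507, 13.8, 2.19 and 0.984 CPM in WT_TAM and 975, 1105 and 1096 CPM in WT_SP. Cd79a and Cd79b, the signalling chains of the B cell receptor, averaged 8.59 ± 9.64 and 9.96 ± 5.55 CPM in WT_TAM (SD, n = 4) and 2055 ± 207 and 1565 ± 168 CPM in WT_SP (SD, n = 3). Pax5, the factor that fixes B cell identity, had at most 0.490 CPM in WT_TAM and 38.5, 48.6 and 65.3 CPM in WT_SP. The defining markers were thus high in every library labelled as splenic macrophages, and near 0 in most WT_TAM libraries, with Pax5 at 0 in WT_TAM replicate 4. Replicate 2 was the highest WT_TAM library for Ms4a1 and Pax5, as it was for Ighd, Iglc2 and Ighm.

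Markers of plasma cells gave a mixed picture. Of 18, 10 were lower and 3 higher in WT_TAM, and the summed level, which includes Jchain, was between 1094 and 1567 CPM in WT_TAM and between 3408 and 5020 CPM in WT_SP. Jchain, itself a member and among those lower, gave 3050, 1684 and 2366 CPM of the WT_SP sums 5020, 3408 and 4262 CPM. It gave at most 6.33 CPM in WT_TAM, so much of the gap between the sums is Jchain. Mzb1, a chaperone of IgM assembly in the endoplasmic reticulum, had 0.507, 1.86, 0.612 and 0 CPM in WT_TAM and 196, 243 and 210 CPM in WT_SP (log2 fold change -7.65; limma adjusted p = 3.48e-06). Txndc5, a protein disulfide isomerase, had 181, 208, 150.1 and 125 CPM in WT_TAM and 412, 284 and 363 CPM in WT_SP (-1.10; limma adjusted p = 0.00423). Sdc1, which encodes the plasma cell surface marker CD138 and is expressed by other cells too, was higher in WT_TAM, with 87.1, 162.9, 77.5 and 70.2 CPM against 45.9, 26.2 and 39.7 CPM in WT_SP (1.36; limma adjusted p = 0.00841). Xbp1, the factor of the secretory response, had 355 ± 61.8 CPM in WT_TAM and 284 ± 50.4 CPM in WT_SP (SD, n = 4 and 3; limma adjusted p = 0.258). Within WT_SP, 8 of the 18 plasma cell markers, Jchain, Txndc5, Xbp1 and Sdc1 among them, had replicate 1 highest and replicate 2 lowest, the order of Igha and Igkc. For 6 of the 18, Mzb1 among them, replicate 1 was lowest, and the other 4 had another order. The B cell marker sum was instead lowest in WT_SP replicate 1.

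The other cell type lists give the setting. Of 12 T cell markers all 12 were lower in WT_TAM, with summed levels between 104.8 and 177 CPM in WT_TAM and between 1745 and 1854 CPM in WT_SP, and Trac, the constant gene of the alpha chain of the T cell receptor, had at least 173 CPM in each WT_SP library. Of 8 NK cell markers 7 were lower, of 9 neutrophil markers 8, of 8 erythroid markers 8 and of 5 platelet markers 4, while 1 platelet marker, Pf4, was higher. Of 9 dendritic cell markers 6 were lower and 2 higher. Macrophage identity markers went the other way, with 9 of 12 tested genes higher and none lower in WT_TAM. Adgre1, the gene of F4/80 by which both populations were sorted, had 707, 577, 486 and 295 CPM in WT_TAM and 341, 276 and 286 CPM in WT_SP (limma adjusted p = 0.0733). Csf1r, the receptor on which macrophages depend, had 2161, 2046, 1870 and 1049 CPM in WT_TAM and 1244, 1006 and 960 CPM in WT_SP (limma adjusted p = 0.0654). Neither difference passed the test, and the groups overlapped for both genes. Of 9 markers of splenic red pulp macrophages 7 were lower in WT_TAM and 1 higher, and Slc40a1, the iron exporter, had 4.40 ± 5.47 CPM in WT_TAM (SD, n = 4) and 1193 ± 102 CPM in WT_SP (SD, n = 3). Neutrophil markers summed to 2382, 1032 and 2919 CPM in WT_SP replicates 1 to 3, and to between 75.7 and 157.7 CPM in WT_TAM. Erythroid markers summed to 4956, 1405 and 1035 CPM in WT_SP, and to between 172.9 and 771.9 CPM in WT_TAM. The libraries labelled as splenic macrophages therefore held macrophage and red pulp transcripts beside those of B cells and T cells and those of the neutrophil and erythroid lists.

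**Figure D5:**
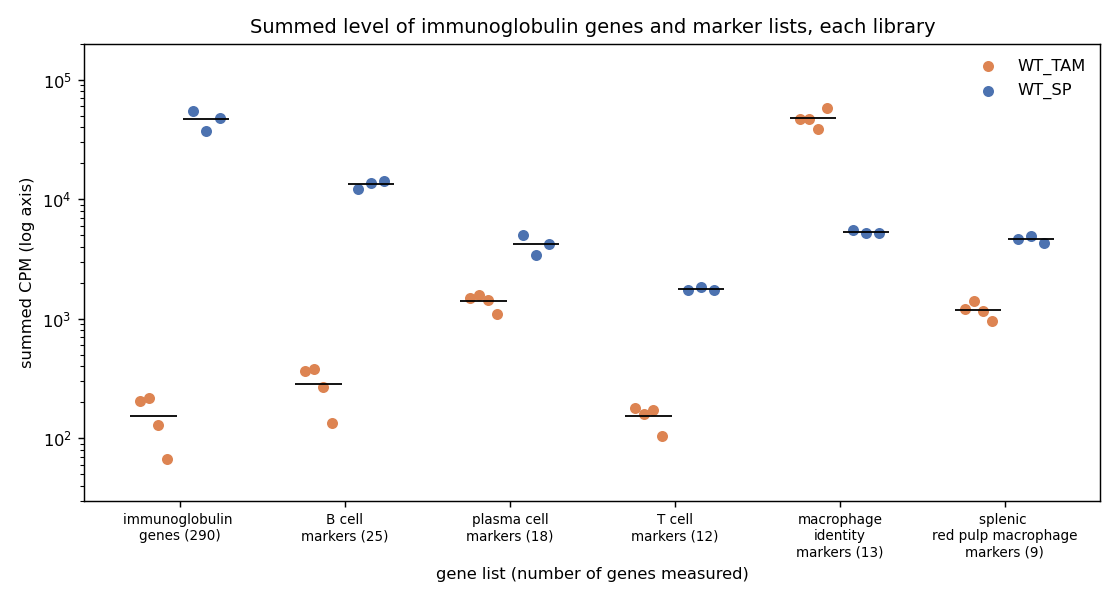
Summed CPM of the immunoglobulin members and of 5 marker lists in each WT_TAM (orange, n = 4) and WT_SP library (blue, n = 3), on a log axis, with black lines at group means and the number of genes measured in brackets. WT_TAM lies below WT_SP for the immunoglobulin genes (66.2 to 215.2 against 37140 to 55240 CPM) and for B cell markers (133 to 378 against 12270 to 14270 CPM), and above it for macrophage identity markers.

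Factors of immunoglobulin transcription were lower in WT_TAM as a list, with 8 of 8 tested genes. Pou2af1, the co-activator that acts at the octamer element of immunoglobulin promoters, had 0.441 ± 0.451 CPM in WT_TAM (SD, n = 4) and 219 ± 9.58 CPM in WT_SP (SD, n = 3), a log2 fold change of -7.98 (limma adjusted p = 9.05e-07). Pou2f2, the octamer-binding factor Oct-2, had 5.83, 5.19, 11.4 and 7.54 CPM in WT_TAM and 73.5, 79.6 and 87.2 CPM in WT_SP (-3.39; limma adjusted p = 1.86e-05). Spib, an Ets factor of B cells, had at most 6.17 CPM in WT_TAM and at least 455 CPM in WT_SP (-8.29; limma adjusted p = 2.55e-05). Ikzf1 and Tcf3, expressed in many blood cells, showed smaller changes of -2.16 and -1.53 (limma adjusted p = 0.000539 and 7.75e-05). Of 15 genes of B cell receptor signalling 11 were lower and none higher, and Ptpn6, a phosphatase also used by macrophages, changed least of the 3 genes with the highest CPM in that list (-0.65; limma adjusted p = 0.0283).

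Of 10 measured genes of rearrangement and class switching 5 were tested, 4 of them lower and 1 higher in WT_TAM. Bcl6 had 19.2 ± 6.98 CPM in WT_TAM (SD, n = 4) and 40.9 ± 2.51 CPM in WT_SP (SD, n = 3), and Ung, a uracil glycosylase of switching and repair, 3.10 ± 2.23 and 7.03 ± 1.44 CPM. S1pr2, a sphingosine phosphate receptor that is not limited to B cells, was the gene that was higher, at 66.4 ± 16.5 CPM in WT_TAM (SD, n = 4) and 9.65 ± 2.80 CPM in WT_SP (SD, n = 3; limma adjusted p = 7.93e-05).

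Receptors for antibody moved in both directions. Of 10 tested Fc receptor genes 5 were higher and 4 lower in WT_TAM. Fcgr3, an activating IgG receptor, had 1643, 1792, 1712 and 2015 CPM in WT_TAM and 178, 142 and 135 CPM in WT_SP (log2 fold change 3.56; limma adjusted p = 1.28e-06). Fcgr2b, the inhibitory IgG receptor, had 1413, 1688, 1676 and 1055 CPM in WT_TAM and 91.1, 118.7 and 101.8 CPM in WT_SP (3.79; limma adjusted p = 2.77e-06). Fcer1g, the signalling chain of activating Fc receptors such as Fcgr3, had 1912 ± 502 CPM in WT_TAM (SD, n = 4) and 369 ± 14.3 CPM in WT_SP (SD, n = 3). Among those that were lower, Fcer2a and Fcmr, receptors for IgE and IgM found on B cells and named here after their values were seen, had at most 5.39 and 7.64 CPM in WT_TAM and at least 490 and 854 CPM in WT_SP.

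Loss of Sin1 in the myeloid lineage was compared within the tumor macrophages, in the table of the genotype comparison, whose size factors differ from those used above. Of 290 members 240 are in that table, and 11 were tested. None was called by limma at an adjusted p below 0.05, as were 0% of all 12774 genes tested. At an unadjusted p below 0.05 there was 1 member, Ighm, against 18.3% of all genes. Members together took 1216, 1904, 3197 and 2706 reads in KO_TAM and 2400, 2196, 1469 and 404 reads in WT_TAM. The mean summed level was 1.48-fold higher in KO_TAM, within the spread of both groups.

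Ighm had 52.4, 139.9, 93.9 and 138.2 CPM in KO_TAM and 59.0, 91.0, 49.1 and 15.2 CPM in WT_TAM. The ranges overlapped, and the difference was 1.13 ± 0.51 on the log2 scale (SE; adjusted p = 0.270 by limma). Igkc had 12.0, 18.8, 59.5 and 34.9 CPM in KO_TAM and 42.6, 33.5, 17.5 and 14.1 CPM in WT_TAM (0.10 ± 0.50; limma adjusted p = 0.918). Igha had 4.35, 0.930, 37.9 and 3.09 CPM in KO_TAM and 33.2, 3.05, 12.5 and 2.79 CPM in WT_TAM (-0.61 ± 1.00; limma adjusted p = 0.754). Ighd had 0.152, 0.517, 7.43 and 16.8 CPM in KO_TAM and 0.586, 12.4, 2.93 and 1.40 CPM in WT_TAM (0.00077 ± 1.07; limma adjusted p = 0.9997). Standard errors of 0.50 to 1.07 on the log2 scale leave wide intervals around these differences.

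The other 7 tested members were Jchain, Ighg2b, Ighg2c, Iglc1, Iglc2, Iglv1 and Igkv1-117, with log2 fold changes between -0.53 and 0.97 and limma adjusted p between 0.290 and 0.892. The median over the 11 was 0.34, and without WT_TAM replicate 4, where 14 members were tested, the median over those 14 was -0.04. Ighg3, unread in WT_TAM, had 6, 9, 1 and 9 reads in KO_TAM and was below the filter.

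The isotype shares of KO_TAM and WT_TAM libraries overlapped. Ighm took between 65.8% and 94.6% of heavy constant reads in KO_TAM and between 63.2% and 83.9% in WT_TAM. There were 434.8, 744, 158 and 396 Ighm reads per 100 Igkc reads in KO_TAM replicates 1 to 4, against 138.6, 271, 280 and 107.7 in WT_TAM. Ighv reads numbered between 8.68 and 19.3 per 100 Ighm reads in KO_TAM. Single variable genes stood out in KO_TAM too. In replicate 3 Ighv1-81 took 66 of 217 Ighv reads and Igkv1-110 took 121 of 373 Igkv reads, and in replicate 2 Ighv5-17 took 41 of 155 Ighv reads. In replicate 1 Ighv5-17 shared the lead with 11 reads and Igkv6-20 led with 15, and in replicate 4 Ighv10-1 led with 17 reads and Igkv8-30 with 15. The leading genes of the 8 tumor libraries thus differed from library to library, with Ighv5-17 and Igkv1-110 leading or sharing the lead in 2 each (in KO_TAM replicate 2 Igkv1-110 and Igkv1-117 had 20 reads each). The B cell marker sum was between 281 and 773 CPM in KO_TAM and between 126 and 328 CPM in WT_TAM in this table. None of its 18 tested genes was called. The highest sum, in KO_TAM replicate 2, came mostly from Siglecg (457 CPM) and Bank1 (208 CPM), named after their values were seen. Ms4a1 had 5.79 CPM and Pax5 no read in that library. In KO_TAM replicates 1, 3 and 4 Siglecg had 126, 93.4 and 191 CPM.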

How the data were processed

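RNA-seq of 11 sorted macrophage libraries was analysed from the gene tables that the authors deposited. The values are in a unit recorded as a score: tests on the values showed length-scaled read rates multiplied by a ratio of size factors whose index runs down the rows. TopHat2, HISAT2, HISAT, SAMtools, HTSeq and DESeq2 and the build mm10 appear in the submitters' processing notes; their roles, versions, the annotation and the use of strand were not stated in those notes. Whole reads were recovered from these deposited scores (99.95% to 99.98% of the library totals in the tissue table, 99.39% to 99.71% in the genotype table, where 44 genes with values that are not whole reads, none a member, were left out). CPM were computed with the file's own totals and factors. limma 3.58.1 in R 4.3.3 (trend, robust) tested log2(CPM + 0.5), so that fold changes of low genes are understated, after a filter of 10 reads at the median library in at least 3 (tissue) or 4 (genotype) libraries and at least 15 reads in all. P-values were adjusted by Benjamini-Hochberg over all genes tested, with a threshold of 0.05. The method was tested on simulated data. Shares carry 95% Clopper-Pearson intervals, which cover counting error only.

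Groups came from the labels, and the comparisons were WT_TAM with WT_SP and KO_TAM with WT_TAM. Members and gene lists were chosen with earlier results of these data known. Named were all constant genes, Jchain and Iglv genes, the 6 Ighv and 6 Igkv genes with the highest mean CPM, each library's leading variable genes, the 3 genes of each list with the highest mean CPM and a few defining markers. The alternatives tried were other scalings, pseudocounts, no filter, voom, the deposited values as they stand, a replicate block, leaving out each library and, for the genotypes, leaving out WT_TAM replicate 4 and KO_TAM replicate 2 together.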

Additional observations from a re-analysis of the deposited data

Results flagged for a closer look

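In groups of 4 libraries, 147 values or sums were examined for a single library far from the other 3 by Dixon's criterion, and 23 were flagged. The criterion takes values as normally distributed, and many here rest on a few reads, so how often chance flags a group is not known. A gene read in a single library of a group is flagged whatever its level. Many of these values share reads, and no flagged value was weighed for a cause.

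In KO_TAM, Igha stood at 37.9 CPM in replicate 3, with the next library at 4.35 CPM. Ighv1-81 stood at 5.51 CPM in replicate 3, with the next at 0.176 CPM. Ighv10-1 and Ighv14-2 stood at 1.499 and 1.23 CPM in replicate 4, with the next at 0.0835 and 0.251 CPM. Ighv3-6 stood at 1.14 CPM in replicate 2, with the next at 0.167 CPM. Iglc4 stood at 0.265 CPM in 1 library and had no read in the others. Ighg2c took 6.58% of heavy constant reads in replicate 1, with the next library at 0.931%. Neutrophil markers summed to 700.0 CPM in replicate 2, with the next library at 198.7 CPM, and a single gene, Retnlg, made up 683 CPM of that sum (named after its value was seen). Erythroid markers summed to 263 CPM in replicate 3, with the next library at 53.7 CPM.

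In WT_TAM, replicate 1 stood apart for Ighv1-18 (13.3 CPM, next 0.294 CPM) and Igkv4-70 (13.2 CPM, next 0.0980 CPM). Its leading genes took 76.7% of Ighv reads and 68.7% of Igkv reads, with the next libraries at 17.9% and 18.0%. Replicate 2 stood apart for Iglc2 (6.96 CPM, next 0.787 CPM), Iglc3 (2.65 CPM, next 0.422 CPM) and the summed lambda constant genes (11.2 CPM, next 2.45 CPM). It also held the only Iglc4 read (0.0980 CPM), the only Ighv10-1 reads (0.490 CPM) and the highest Igkv1-117 level (1.47 CPM, next 0.350 CPM). Replicate 3 stood apart for Ighg2c (3.15 CPM, next 0.392 CPM) and Ighv14-2 (1.92 CPM, next 0.0980 CPM). Replicate 4 was low for Iglc1 (0.164 CPM, next 1.31 CPM). Neutrophil markers summed to 157.7 CPM in replicate 1, with the next library at 89.3 CPM, and Retnlg made up 147 CPM of it.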

How the results depend on the processing

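Under every alternative run, no tested member was higher in WT_TAM. Between 189 and 196 were lower when single libraries were left out, 195 with the library total alone, and 230 of 290 without a filter, by limma in each case. The summed level was between 257-fold and 354-fold lower with single libraries left out. The median log2 fold change of the 190 tested members was -4.39 with a pseudocount of 2 and -8.59 with voom, and over all 290 members without a filter it was -4.32. With the library total alone, where 195 were tested, it was -6.37. Igkv4-70 was the one named member that lost its call, as given in the report. In the genotype comparison no member was called under any alternative, voom included; without a filter 76 of all genes were called lower and 20 higher, and without WT_TAM replicate 4 and KO_TAM replicate 2 together 44 lower and 21 higher.

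The replicate numbers shared by the groups were used as a replicate block: 190 members were lower as before, and over all genes 4573 were lower and 4519 higher. WT_TAM replicate 4 has no partner in WT_SP, so that the block also removes its weight, and leaving out that library alone gave 4658 lower and 4481 higher. Same-numbered libraries deviated with correlations between -0.094 and 0.099 in the tissue table and between -0.16 and 0.20 in the genotype table. Weak correlations cannot exclude that same-numbered libraries share a mouse or a day of sorting, so whether the numbers pair the samples was not settled. Between 404 and 2400 member reads per WT_TAM library limit what can be said of single genes there.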
